A study of Mus musculus with 8 samples.

Results

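The genes described here are 10 cytosolic heat shock chaperones and their partner proteins, Hspa1a, Hspa1b, Hsph1, Hsp90ab1, Hsp90aa1, Stip1, Chordc1, Ahsa2, Dnajb1 and Hspa8, out of 32285 features in the count matrices. They are a named list chosen by levels measured in these libraries. Which contrast was used is not recorded, so levels and differences between libraries or gates are given as a description even where a test is quoted. All 10 were found in the files and passed the filter on low counts in every fit. Their unique molecular identifiers (UMIs, 1 per captured transcript) were summed over T cells with at least 2 UMIs in all of Trac, Trbc1, Trbc2, Cd3d, Cd3e and Cd3g. A cell with at least 1 Cd4 UMI and none of Cd8a or Cd8b1 was CD4-gated, and the reverse was CD8-gated. The cells came from the pancreas of non-obese diabetic (NOD) mice, an inbred strain in which T cells destroy the insulin-producing beta cells, labelled female and 3 to 4 months old in one label and 3 to 5 months in another, sorted as CD45+, CD3+ and TCR beta+. 1 library came from mice with active diabetes (blood glucose over 600 mg/dl) and 1 from mice at diabetes onset (250 mg/dl), both without drug. The other 6 came from newly diabetic mice (200 to 300 mg/dl) given vehicle (ethanol, Tween 20 and PEG300) or PPCA daily, 1 library of each on days 2, 3 and 4. PPCA combines MK-1775 (25 mg/kg), an inhibitor of the cell cycle kinase WEE1, with Nutlin-3 (50 mg/kg), which frees p53 from MDM2. The labels do not give the number of mice per library, and they state that cells were frozen after sorting and all processed at the same time.

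Heat shock chaperones keep other proteins folded. Proteins of the Hsp70 family (Hspa8, made in nearly all cells, and the stress-inducible Hspa1a and Hspa1b) bind unfolded stretches. J-domain proteins such as Dnajb1 deliver clients to them, and Hsph1, of the Hsp110 family, exchanges their nucleotide. Stip1 passes clients on to Hsp90, made as Hsp90aa1 and the more constant Hsp90ab1, whose cycle is adjusted by partners such as Chordc1 and the Ahsa family. Their transcription rises under heat, oxidants or drugs that damage proteins, through the heat shock factor HSF1, which binds inverted repeats of the unit GAA, and it also rises when T cells are activated. Tissue dissociation at warm temperature is known to raise several of these genes in single-cell data.

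The promoters of 5 of the genes are shown because an inverted pair of the heat shock factor's binding units can be read in some of them and not in others. Each run covers 250 bases before and 50 after the start site in RefSeq on GRCm38.p6, 5′ to 3′ on the gene's own strand. Capitals mark every match to an inverted pair of units, GAANNTTC or TTCNNGAA, with overlapping matches joined, and each of these motifs reads the same on both strands. The runs are Hspa1a at chr17:34972107-34972406, minus strand, Hspa1b at chr17:34959189-34959488, minus strand, Hsph1 at chr5:149636287-149636586, minus strand, Chordc1 at chr9:18292017-18292316, plus strand, and Stip1 at chr19:7039977-7040276, minus strand.
Hspa1a: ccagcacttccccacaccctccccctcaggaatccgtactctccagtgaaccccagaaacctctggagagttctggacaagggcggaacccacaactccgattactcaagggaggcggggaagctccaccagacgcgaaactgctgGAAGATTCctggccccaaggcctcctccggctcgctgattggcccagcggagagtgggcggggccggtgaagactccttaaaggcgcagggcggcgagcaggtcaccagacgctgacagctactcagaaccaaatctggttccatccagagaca
Hspa1b: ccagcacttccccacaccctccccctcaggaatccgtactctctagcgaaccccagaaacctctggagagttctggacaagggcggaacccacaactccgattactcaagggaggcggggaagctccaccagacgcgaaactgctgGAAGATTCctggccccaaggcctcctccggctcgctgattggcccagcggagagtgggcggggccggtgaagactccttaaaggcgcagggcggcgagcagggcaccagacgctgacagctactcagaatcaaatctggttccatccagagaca
Hsph1: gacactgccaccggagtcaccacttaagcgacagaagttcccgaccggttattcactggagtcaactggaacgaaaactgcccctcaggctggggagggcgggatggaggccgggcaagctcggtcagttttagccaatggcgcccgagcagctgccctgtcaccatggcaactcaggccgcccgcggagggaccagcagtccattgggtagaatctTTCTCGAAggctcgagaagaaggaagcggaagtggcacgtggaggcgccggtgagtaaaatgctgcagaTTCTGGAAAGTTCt
Chordc1: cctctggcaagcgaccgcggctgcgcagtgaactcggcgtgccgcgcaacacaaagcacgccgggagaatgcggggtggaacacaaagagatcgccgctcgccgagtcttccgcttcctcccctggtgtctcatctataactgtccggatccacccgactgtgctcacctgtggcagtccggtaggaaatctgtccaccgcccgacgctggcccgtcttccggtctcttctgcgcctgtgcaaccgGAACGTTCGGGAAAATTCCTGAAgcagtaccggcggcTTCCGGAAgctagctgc
Stip1: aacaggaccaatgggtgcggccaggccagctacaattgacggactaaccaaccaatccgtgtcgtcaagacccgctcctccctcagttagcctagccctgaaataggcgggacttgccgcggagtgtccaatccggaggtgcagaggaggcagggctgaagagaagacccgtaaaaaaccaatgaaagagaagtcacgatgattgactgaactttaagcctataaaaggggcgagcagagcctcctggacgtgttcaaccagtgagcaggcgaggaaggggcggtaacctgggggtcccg
Hspa1a and Hspa1b are neighbouring copies, and their promoters were identical at 296 of 300 positions (98.7%), each with 1 match, GAAGATTC, 104 bases before the start. Hsph1 had TTCTCGAA 33 bases before its start and TTCTGGAAAGTTC, which holds 3 units in a row, alternating in direction, 36 bases after it. Chordc1 had the longest run, the 23 bases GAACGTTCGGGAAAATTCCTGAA from 4 bases before the start, and TTCCGGAA 33 bases after it. The promoters of Stip1, Ahsa2 and Dnajb1 held no match in this window. Of 9 promoters matched to 7 of the 10 genes by symbol, 5 (4 genes) held a pair of units and 3 (2 genes) held 3 units in a row. These are not all separate sequences. Hsph1 has 2 overlapping promoters with the same matches, 54 bases before and 15 after the second start, and Hspa1a and Hspa1b are near copies. Over all 32851 promoters of the table the shares were 15.1% and 0.603%, and over 36 promoters of other cytosolic chaperones and co-chaperones they were 30.6% and 5.56%. A match describes letters and is not evidence of binding. No promoter was matched for Hsp90aa1, Hsp90ab1 or Hspa8.

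The 8 libraries held 80470 barcodes and 419420275 UMIs, with 36934580 to 67603740 UMIs each. After filters on genes, mitochondrial share and doublets, 70283 T cells remained, of which 27455 were CD4-gated and 22099 CD8-gated. CD4-gated cells had median depths of 3850.5 to 6160 UMIs across libraries and CD8-gated cells 4272.5 to 7237.5. Any pair of libraries shared at most 41 barcodes, 0.431% or less of the smaller one. Sex-linked genes went against the label in 4 libraries. The Y-linked genes Ddx3y, Eif2s3y, Kdm5d and Uty together reached up to 288 CPM (UMIs per 1000000 UMIs) in CD4-gated cells of vehicle day 2, vehicle day 3, PPCA day 3 and PPCA day 4, in which Xist was at 0.893 CPM or less, while Xist was at 401 to 558 CPM in active, onset, PPCA day 2 and vehicle day 4. The day 3 libraries are the only vehicle and PPCA pair of one kind, and their values are given separately throughout. Markers of other tissue were low but uneven, with exocrine pancreas genes summing to 5.48 to 248 CPM and erythroid genes to 0.0792 to 169 in CD4-gated cells, the highest being PPCA day 3 and active respectively. Their part in the chaperone levels was not tested.

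The inducible Hsp70 genes had by far the widest range of the 10. Levels are given as CPM, the UMIs of a gene scaled to 1000000 UMIs of all genes in the gated cells of a library. In CD4-gated cells Hspa1a stood at 21.5 CPM in active and 26.2 CPM in onset. Vehicle and PPCA libraries had 6.34 and 115 CPM on day 2, 0.934 and 3.09 on day 3, and 3.35 and 0.730 on day 4. PPCA day 2 was thus far above every other library, and the order fell through onset, active and vehicle day 2 to the remaining 4. The 95% counting intervals of vehicle day 4 (2.66 to 4.15) and PPCA day 3 (2.20 to 4.22) overlapped, as did those of vehicle day 3 (0.554 to 1.48) and PPCA day 4 (0.334 to 1.39), whose level rested on 9 UMIs. Hspa1b in the same cells stood at 11.5 CPM in active and 19.2 in onset. Its vehicle and PPCA values were 2.47 and 25.3 CPM on day 2, 0.363 and 3.01 on day 3, and 2.24 and 0.974 on day 4. The same library was highest and the same pair of untreated libraries came next. CD8-gated cells gave the same highest library for both, at 81.1 CPM for Hspa1a and 21.3 for Hspa1b, against 11.1 and 7.88 in active and 13.3 and 11.04 in onset. The 2 genes are near-identical copies, so the split of reads between them is uncertain. Summed, they ranged from 1.30 CPM (vehicle day 3) to 141 CPM (PPCA day 2) in CD4-gated cells and from 0.986 to 102 CPM in CD8-gated cells. Counting intervals here cover counting error only.

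**Figure D1:**
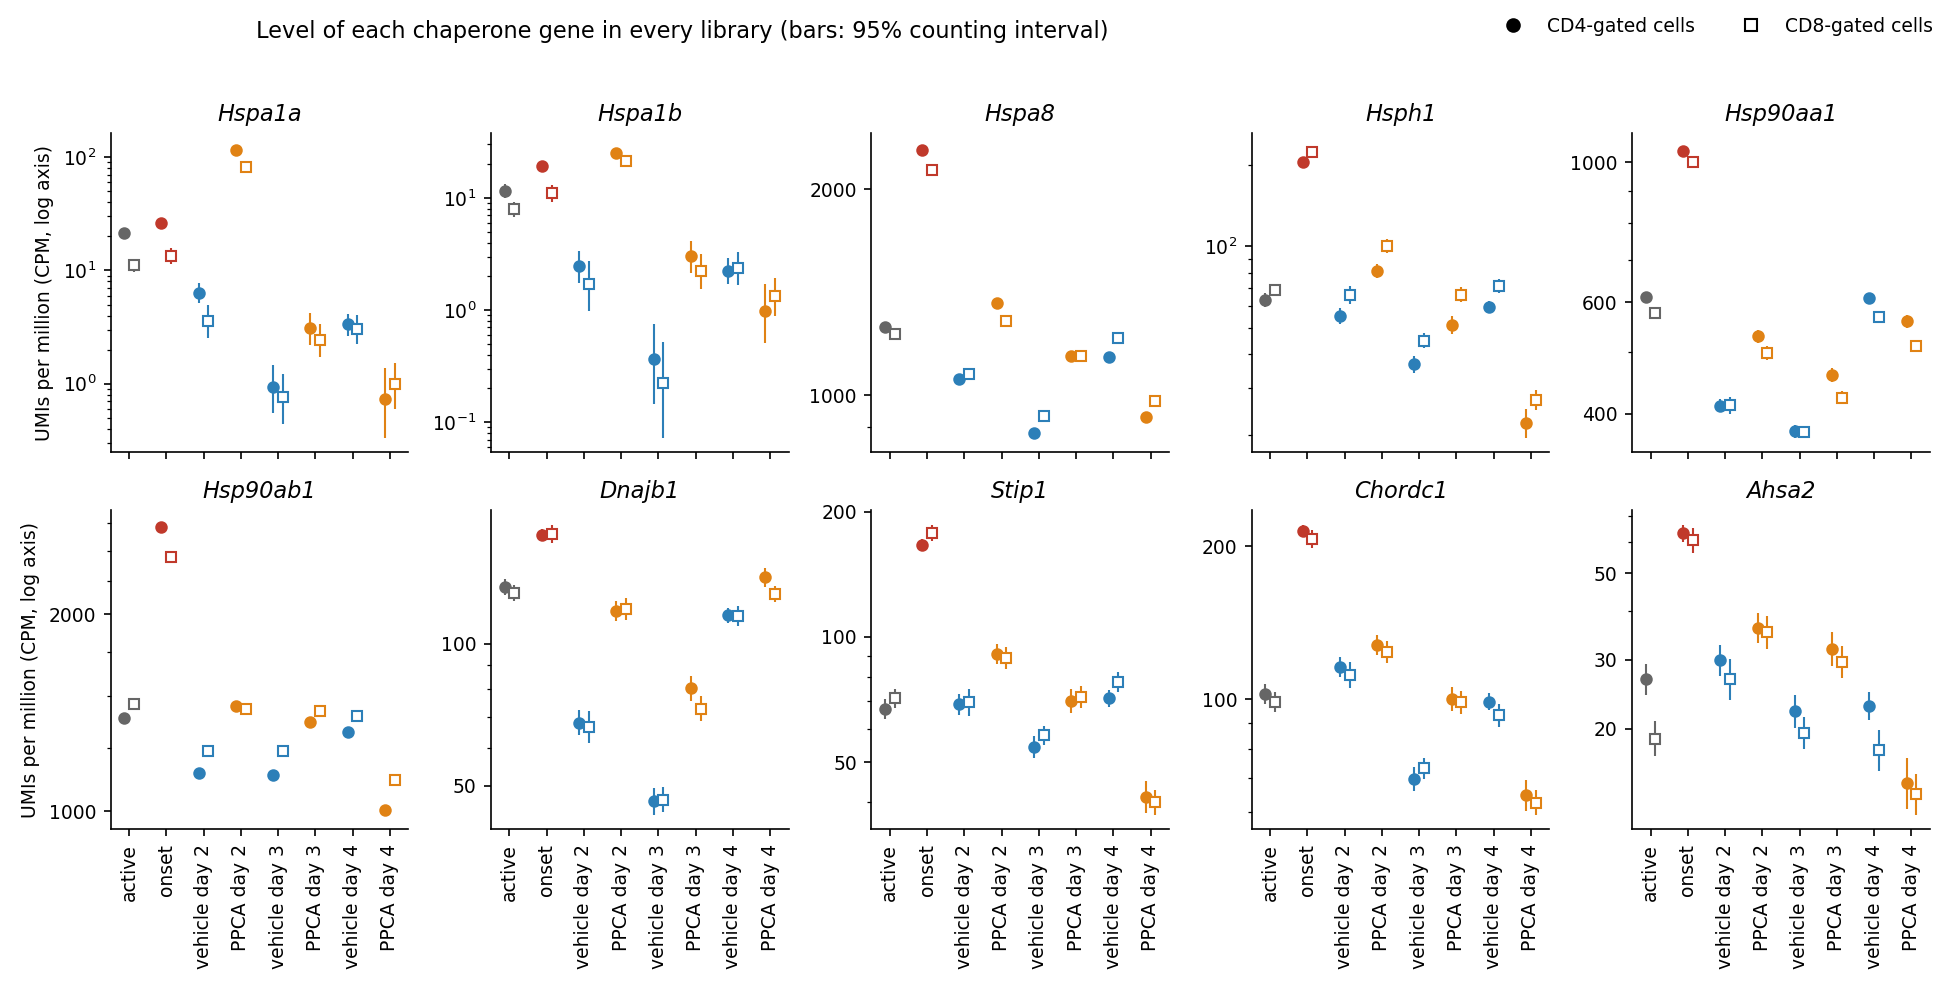
Level of each of the 10 chaperone genes (CPM, log axis, its own scale for each gene) in the 8 libraries, with filled circles for CD4-gated and open squares for CD8-gated cells and bars for the 95% counting interval. Onset was the highest library for 8 of the 10 genes in both gates, and PPCA day 2 was the highest for Hspa1a (115 and 81.1 CPM) and Hspa1b (25.3 and 21.3 CPM).

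In single cells, Hspa1a or Hspa1b was detected in a minority of cells in every library. With each cell thinned to 2000 UMIs, 16.5% of 3062 CD4-gated cells of PPCA day 2 held an Hspa1a or Hspa1b UMI (exact 95% interval 15.2 to 17.9%), against 1.56% of 2951 in vehicle day 2 (1.14 to 2.07%). The shares were 5.69% in active, 8.003% in onset, 0.316% and 1.11% in vehicle and PPCA on day 3, and 0.995% and 0.376% on day 4. In CD8-gated cells they were 3.65% in active, 3.45% in onset, 0.874% and 12.1% on day 2, 0.203% and 0.912% on day 3, and 1.02% and 0.412% on day 4. PPCA was above vehicle on 2 of 3 days in both gates. The mean difference was 5.05 percentage points in CD4-gated cells (PPCA 6.003 ± 9.12, vehicle 0.957 ± 0.622, SD, n = 3) and 3.76 points in CD8-gated cells (4.46 ± 6.58 against 0.699 ± 0.435), with an exact 2-sided sign-flip p of 0.5 in each, where 3 pairs allow no p under 0.25. Without the day 2 pair the difference was 0.0865 points in CD4-gated and 0.0514 in CD8-gated cells, so the mean rested on that pair. Unthinned, PPCA day 2 had 22.5% of CD4-gated and 19.7% of CD8-gated cells with a UMI. In PPCA day 2, 3.49% of thinned CD4-gated and 2.12% of CD8-gated cells held 3 or more of these UMIs. Thinning left out 11 to 91 CD4-gated and 13 to 97 CD8-gated cells per library. No cell type known to lack these genes was set apart in these sorted cells, so a background share from free RNA could not be set.

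**Figure D2:**
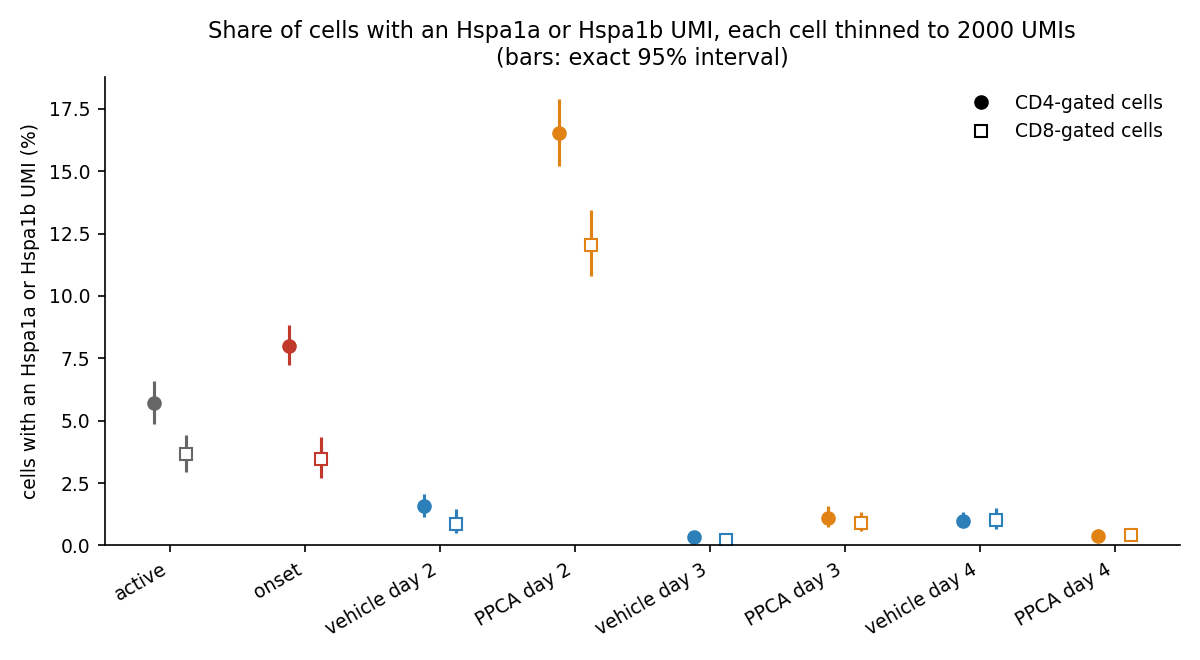
Percentage of cells with at least 1 Hspa1a or Hspa1b UMI after thinning each cell to 2000 UMIs, by library, for CD4-gated (filled circles) and CD8-gated cells (open squares), with exact 95% binomial intervals. PPCA day 2 stands at 16.5% and 12.1%, onset and active at 3.45 to 8.003%, and the other 5 libraries at 1.56% or less.

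The constitutive Hsp70 gene Hspa8 and the Hsp110 gene Hsph1 were highest at onset. Hspa8 in CD4-gated cells was at 1260.3 CPM in active and 2282 in onset, and at 1057 and 1364 CPM in vehicle and PPCA on day 2, 881 and 1143 on day 3, and 1139 and 929 on day 4. Leaving onset aside, its 7 libraries lay within 881 to 1364 CPM. In CD8-gated cells it ranged from 934 (vehicle day 3) to 2136 CPM (onset). Hsph1 in CD4-gated cells was at 63.3 CPM in active and 206 in onset, and at 55.3 and 81.1 CPM on day 2, 36.6 and 51.2 on day 3, and 60.0 and 22.2 on day 4. Its highest level was 9.29 times its lowest, which was in PPCA day 4, and without onset the highest was 81.1 CPM. CD8-gated cells spanned 27.1 (PPCA day 4) to 223 CPM (onset). Hspa8 and Hsp90ab1 have many processed pseudogenes, and how the counting treated reads shared with them is not given in the sources used here.

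Both Hsp90 genes had onset as their highest library too. Hsp90ab1, the form made at a steady level, was at 1388 CPM in active and 2717 in onset in CD4-gated cells, and its vehicle and PPCA values were 1143 and 1450.3 on day 2, 1136 and 1368 on day 3, and 1322 and 1005 on day 4. Hsp90aa1, the more inducible form, was at 612 CPM in active and 1042 in onset, and at 412 and 530.0 on day 2, 375 and 461 on day 3, and 609 and 559.8 on day 4. They differed in where they were lowest, PPCA day 4 for Hsp90ab1 and vehicle day 3 for Hsp90aa1. In CD8-gated cells the ranges were 1115 to 2444 CPM for Hsp90ab1 and 375 to 999.9 CPM for Hsp90aa1, with the same libraries at both ends.

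Of the partner proteins, Stip1, Chordc1 and Ahsa2 shared their highest and lowest libraries, and Dnajb1 had another lowest one. Stip1, the adaptor between Hsp70 and Hsp90, was at 67.2 CPM in active and 167 in onset in CD4-gated cells, and at 68.9 and 91.0 on day 2, 54.2 and 70.3 on day 3, and 71.2 and 41.3 on day 4. Chordc1, a zinc-binding Hsp90 partner, was at 102 and 215 CPM in active and onset, and at 116 and 128, 69.6 and 100.2, and 99.0 and 64.8 in vehicle and PPCA on the 3 days. Ahsa2, of the family that stimulates the Hsp90 ATPase, was at 26.8 and 63.4 CPM in active and onset, and at 29.9 and 36.2, 22.2 and 32.1, and 22.9 and 14.5 on the 3 days. All 3 were highest in onset, then in PPCA day 2, and lowest in PPCA day 4, while the libraries between stood in a different order for each. Dnajb1, the J-domain partner of Hsp70, was at 132 CPM in active and 170.0 in onset, and at 68.0 and 117 on day 2, 46.3 and 80.4 on day 3, and 115 and 138 on day 4. It was the only one of the 10 whose PPCA library was above its vehicle library on all 3 days, and PPCA day 4, where most of the others were lowest, came next after onset for Dnajb1 in CD4-gated cells. The counting intervals of PPCA day 4 (132 to 145) and active (126 to 137) overlapped, as did those of PPCA day 2 (112 to 123) and vehicle day 4 (110.5 to 119). In CD8-gated cells Dnajb1 spanned 46.7 (vehicle day 3) to 171 CPM (onset).

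Between the untreated libraries, onset was above active for all 10 genes in both gates (50.5% of genes averaging at least 10 CPM in CD4-gated and 60.3% in CD8-gated cells). There is 1 library of each, so no test was made, and blood glucose, mice and library cannot be told apart. In CD4-gated cells the log2 ratio of onset to active was 1.70 for Hsph1, 1.31 for Stip1, 1.24 for Ahsa2, 1.07 for Chordc1, 0.97 for Hsp90ab1, 0.86 for Hspa8, 0.77 for Hsp90aa1, 0.74 for Hspa1b, 0.37 for Dnajb1 and 0.28 for Hspa1a. In CD8-gated cells it was 1.69 for Hsph1 and Ahsa2, 1.32 for Stip1, 1.06 for Chordc1 and 0.26 for Hspa1a, whose counting interval of -0.04 to 0.57 included 0. A ratio of at least 2-fold was reached by 4 of the 10 in CD4-gated cells (0.236% of 7200 genes averaging at least 10 CPM) and by 4 of the 9 that averaged 10 CPM in CD8-gated cells (1.03% of 7210 genes). Being highest in onset among the 8 libraries was met by 8 of the 10 in both gates (6.53% of 7272 genes in CD4-gated and 11.2% of 7230 in CD8-gated cells). These levels were known when the genes were chosen, so the counts describe them and support nothing further. The median ratio was 0.91 over the 10 in CD4-gated cells and 0.80 over the 9 that averaged 10 CPM in CD8-gated cells, against 0.003 and 0.06 over all genes averaging at least 10 CPM. Some chaperones outside the 10 were as far above active, among them in CD4-gated cells the Hsp70 co-chaperone St13 (1.04), the Hsp90 co-chaperones Fkbp4 (0.97) and Ahsa1 (0.94), the mitochondrial Hsp60 Hspd1 (0.89) and the J-domain gene Dnaja1 (0.80), named here after their values were seen. The 10 were chosen by levels in these libraries, so the medians of other lists are given without a comparison with theirs. Medians in CD4-gated and CD8-gated cells were 0.17 and 0.30 for other cytosolic chaperones and co-chaperones, 0.30 and 0.31 for the 8 subunits of the cytosolic chaperonin TRiC, 0.22 and 0.22 for 12 chaperones of the endoplasmic reticulum (ER), and -0.01 and 0.03 for 9 mitochondrial chaperones. Of the 12 early response genes that dissociation can raise (Fos, Jun, Egr1, Nr4a1 and others), the 10 that averaged 10 CPM in CD4-gated cells had a median of 0.21. The 11 that did so in CD8-gated cells had a median of 0.98. All 12 summed to 2697 CPM in active and 3425 in onset in CD4-gated cells and 1601 and 2872 in CD8-gated cells. Their part in the chaperone levels was not tested.

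The treatment pairs showed opposite directions on the earlier and the last day. On days 2 and 3 all 10 genes were higher in PPCA than in vehicle, and on day 4 all but Dnajb1 were lower, in CD4-gated cells, in CD8-gated cells and in T cells of neither gate, on levels per library total. Of 7288 genes averaging at least 10 CPM in CD4-gated cells, 56.8% were higher in PPCA on day 2, 81.2% were higher on day 3 and 48.4% were lower on day 4, and of 7226 in CD8-gated cells 62.9%, 82.1% and 50.7%, so the day 3 count is close to what most genes did. With TMM scaling the count of days with PPCA higher was the same for each gene except Hsp90aa1 in CD8-gated cells, which was higher on 1 of 3 days. The median log2 ratio over the 10 genes was 0.38, 0.50 and -0.63 on days 2, 3 and 4 in CD4-gated cells, 0.38, 0.50 and -0.47 in CD8-gated cells, and 0.34, 0.39 and -0.44 in cells of neither gate. Higher on days 2 and 3 and lower on day 4 was met by 9 of the 10 in both gates, and by 23.2% of 7288 genes averaging at least 10 CPM in CD4-gated and 27.1% of 7226 in CD8-gated cells. Higher on all 3 days, as Dnajb1 was, were 25.3% and 27.5% of genes. On day 3 the whole distribution was shifted, with a median of 0.18 over all genes in CD4-gated and 0.19 in CD8-gated cells, so the 10 genes lay less far above it than their ratios say. Hspa1a had ratios of 4.19, 1.72 and -2.20 on the 3 days in CD4-gated cells and 4.50, 1.68 and -1.62 in CD8-gated cells. Hspa1b had 3.35, 3.05 and -1.20 and 3.66, 3.32 and -0.84, where day 3 rests on 7 and 5 vehicle UMIs and the counting intervals of the 2 genes overlap. Together Hspa1a and Hspa1b were 15.97-fold higher in PPCA on day 2 in CD4-gated and 19.4-fold in CD8-gated cells. Hsph1 went from 0.55 and 0.48 on days 2 and 3 to -1.44 on day 4 in CD4-gated cells, and Stip1 from 0.40 and 0.37 to -0.79. Dnajb1 stood at 0.79, 0.79 and 0.27 in CD4-gated and 0.83, 0.64 and 0.15 in CD8-gated cells. The day 3 pair, the only one alike in sex-linked genes, gave 0.79 and 0.64 for Dnajb1 and 0.38 and 0.29 for Hspa8. The early response genes summed to 3714 CPM in vehicle and 1683 in PPCA on day 2, 3677 and 3279 on day 3, and 6364 and 10734 on day 4 in CD4-gated cells, in the opposite direction to most of the 10 on each day, and their part was not tested. HSF1's own gene, Hsf1, had ratios of 0.09, 0.25 and 0.06 in CD4-gated and -0.10, -0.05 and 0.11 in CD8-gated cells.

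**Figure D3:**
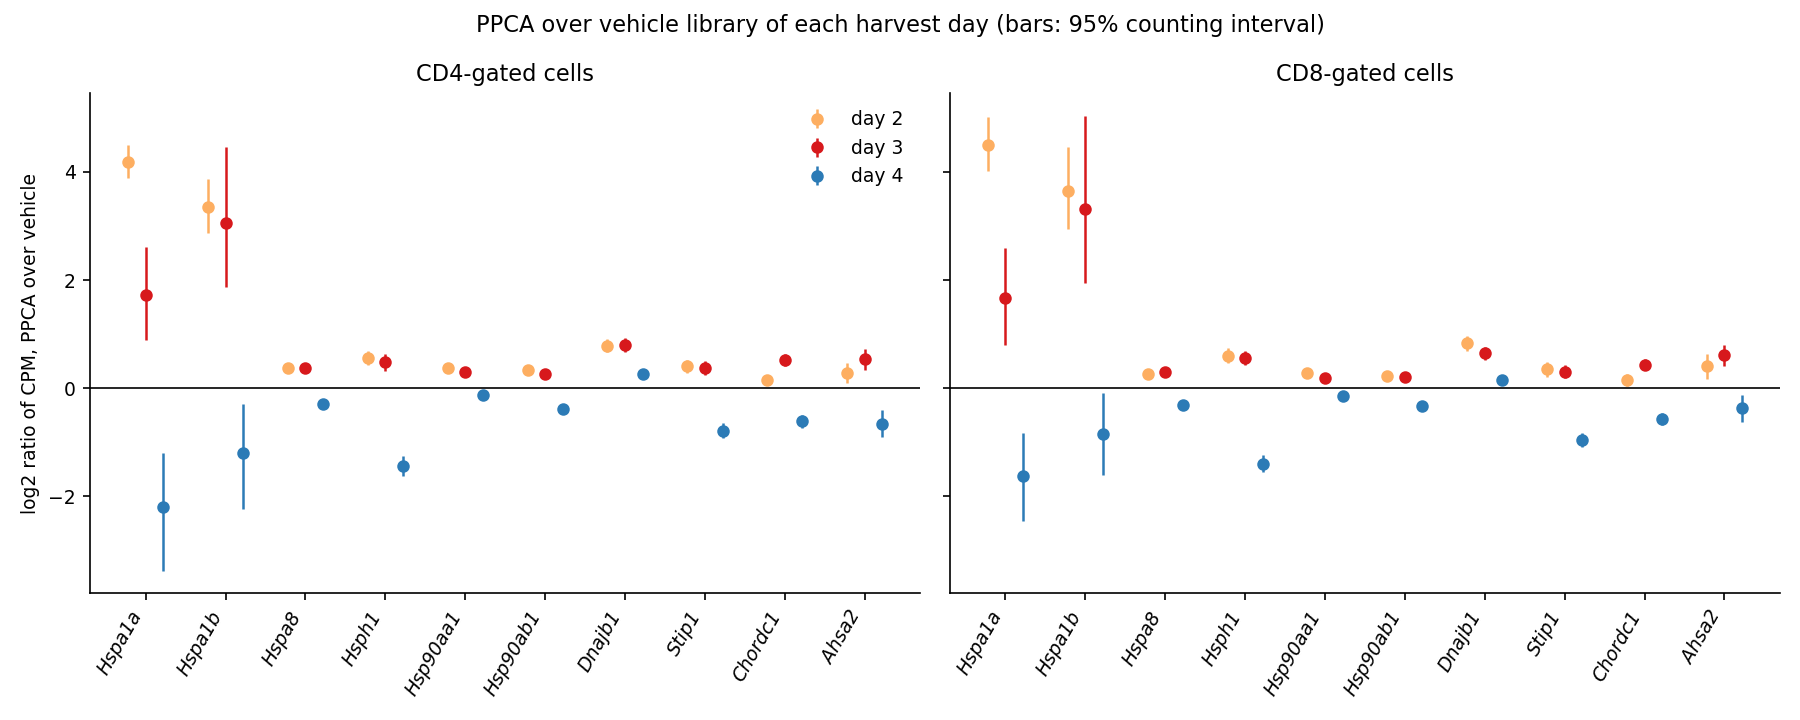
Log2 ratio of PPCA to vehicle CPM for each chaperone gene on days 2 (light orange), 3 (red) and 4 (blue), in CD4-gated cells (left) and CD8-gated cells (right), with 95% counting intervals for the 2 libraries of a day. All 10 genes lie above 0 on days 2 and 3, and 9 of 10 lie below 0 on day 4, with Dnajb1 the exception at 0.27 and 0.15.

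Across the 3 pairs none of the 10 passed between PPCA and vehicle in edgeR's quasi-likelihood test with day as a block, in either gate (0% of 11614 genes in CD4-gated and 0% of 11616 in CD8-gated cells were called). Unadjusted p-values under 0.05 were given to 774 genes and 1 of the 10 in CD4-gated cells, and to 922 genes and 2 of the 10 in CD8-gated cells. DESeq2 called 34 and 40 genes and none of the 10. With all 3 pairs and no low-count filter edgeR called 166 and 117 genes, among them in CD4-gated cells Hspa1a (1.96, adjusted p = 0.0015), Hspa1b (1.82, adjusted p = 0.0012) and Dnajb1 (0.52, adjusted p = 0.012), and in CD8-gated cells Hspa1b (1.84, adjusted p = 0.049). Dnajb1 was at 0.53 on the log2 scale (SE 0.12, edgeR adjusted p = 0.63) and at 0.45 (SE 0.12, adjusted p = 0.53) in the 2 gates, higher on 3 of 3 days. Hspa1a had 1.95 (SE 1.05, adjusted p = 0.77) and 2.03 (SE 0.99, adjusted p = 0.66), and the other members besides Hspa1b lay between -0.19 and 0.14. These fits had 2 residual degrees of freedom, and since the labels do not say that libraries are separate animals, p-values measure only the spread between these libraries. Each pair was left out in turn, which leaves 1 residual degree of freedom. Without the day 2 pair edgeR called 0 genes in both gates, and without the day 3 pair 1 and 0, with none of the 10 among them. Without the day 4 pair, whose direction is the opposite one for most of the 10, it called 186 genes in CD4-gated and 210 in CD8-gated cells, among them Dnajb1 (0.69, adjusted p = 0.0014, and 0.61, adjusted p = 0.0048), Hspa1a (3.65 and 3.69), Hspa1b (3.20 and 3.45) and, in CD8-gated cells, Hsph1 (0.46, adjusted p = 0.032, against -0.14 with all 3 pairs). With a factor for the sex-linked kind of library, which leaves 1 degree of freedom, it called 74 and 183 genes, with Dnajb1 at 0.53 (adjusted p = 0.021) and 0.46 (adjusted p = 0.0070) and, in CD8-gated cells only, Hspa1a at 1.42 (adjusted p = 0.0015) and Hspa1b at 1.71 (adjusted p = 0.0090).

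Day 4 libraries differed from those of days 2 and 3 in 2 of the 10 genes in both gates. With treatment in the fit, edgeR placed 2 of the 10 higher on day 4 in CD4-gated cells, where 8.24% of 11955 genes were called higher, 5.09% lower and 13.3% in all. Dnajb1 was higher by 0.93 (SE 0.13, adjusted p = 0.0061), at 115 to 138 CPM in the day 4 libraries against 46.3 to 117 CPM, which overlap. Hsp90aa1 was higher by 0.57 (SE 0.12, adjusted p = 0.027), at 559.8 to 609 against 375 to 530.0 CPM, with no overlap. In CD8-gated cells, with 9.06% called higher, 7.1% lower and 16.2% in all, they were Dnajb1 (0.91, adjusted p = 0.0047), Hsp90aa1 (0.51, adjusted p = 0.021) and, lower, Ahsa2 (-0.64, adjusted p = 0.046). There too the levels of Dnajb1 overlapped (114 to 127 against 46.7 to 118 CPM) and those of Hsp90aa1 (511 to 569 against 375 to 499) and Ahsa2 (13.6 to 17.6 against 19.5 to 35.4) did not. The counts, 2 and 3 of 10, lay near the share of all genes called. The call for Hsp90aa1 was lost without the day 3 pair (adjusted p = 0.082 and 0.10) and with scaling by total counts (0.063 and 0.072), that for Ahsa2 without the day 2 pair (0.064) or the day 3 pair (0.097) or with no cell filters (0.058), and that for Dnajb1 in CD8-gated cells without the day 3 pair (0.069). Total-count scaling also moved the median of all genes from -0.01 to -0.17 in CD4-gated and from -0.02 to -0.18 in CD8-gated cells, and the share of calls that were higher from 61.8% to 33.1% and from 56.0% to 27.9%. Of the other cytosolic chaperones and co-chaperones, 5 of 32 rose and 1 fell in each gate, among them the Hsp70 co-chaperone Bag3 (1.79 and 1.03) and the J-domain gene Dnajb4 (0.99 and 1.11), and Hsf1 rose by 0.45 and 0.44. Of the 12 ER chaperones 2 rose in each gate, Hspa5 (1.43 and 1.31) and Dnajb9 (3.06 and 2.87), 1 fell in CD8-gated cells, and the list's median was -0.03 and -0.05. Of the 12 early response genes 9 and 11 rose, with Atf3 at 5.34 and 5.75. Day is 1 vehicle and 1 PPCA library each, so day and library cannot be told apart.

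Between the gates of the same 8 libraries the inducible Hsp70 genes were lower in CD8-gated cells and Hsph1 was higher. With library as a block edgeR called 6 of the 10, 3 in each direction, and 46% of 11566 genes, so this count is near that of genes in general (23.2% higher, 22.7% lower). Hspa1a was lower by 0.64 in CD8-gated cells (log2 fold change -0.64, SE 0.10, adjusted p = 6.2e-05, higher in 1 of 8 libraries), Hspa1b by 0.39 (-0.39, SE 0.11, adjusted p = 0.010, higher in 2 of 8) and Ahsa2 by 0.15 (-0.15, SE 0.05, adjusted p = 0.021, higher in none of 8). Hsph1 was higher by 0.28 in CD8-gated cells (SE 0.04, adjusted p = 9.0e-06) in 8 of 8 libraries. Hsp90ab1 (0.10, adjusted p = 0.040) and Stip1 (0.09, adjusted p = 0.010) were higher in 7 of 8, and with total-count scaling neither call held (adjusted p = 0.14 and 0.13), while Hsp90aa1 was then called lower (-0.07, adjusted p = 0.012). Hsp90aa1, Chordc1, Dnajb1 and Hspa8 did not pass the test, at -0.03, 0.00, 0.00 and 0.05. The call for Hsp90ab1 was lost in 7 of the 8 fits that left out 1 library (adjusted p up to 0.13), that for Ahsa2 without active (0.064) or vehicle day 4 (0.062), and that for Hspa1b without onset (0.081), while Hspa8 gained one without onset (0.07, adjusted p = 0.044). DESeq2 did not call Hspa1b (0.075), Ahsa2 (0.063) or Stip1 (0.10), DESeq2 size factors in edgeR ended the call for Hsp90ab1 (0.057), and testing with no low-count filter that for Stip1 (0.0504). Total-count scaling moved the share of calls that were higher from 50.5% to 37.3%. Early response genes differed as well, with 9 of 11 lower in CD8-gated cells.

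The Hsp90 genes, Hspa8 and Hsph1 were higher in cells that held a UMI of Nr4a1, an early target of T cell receptor signals, than in cells of the same gate and library that held none. This comparison is made within libraries. The contrast by which the 10 genes were chosen is not recorded, so whether that choice drew on these classes is not known. Nr4a1 is also among the early response genes that dissociation can raise. Whether receptor signals or handling marked these cells was not tested. In CD4-gated cells edgeR called 4 of the 10 higher and 1 lower, where 3.55% of 10922 genes were called higher, 1.67% lower and 5.22% in all. On TMM-scaled levels over the 8 libraries, Hsp90ab1 had a lowest, median and highest of 1122, 1612 and 3127 CPM with an Nr4a1 UMI and 1019, 1287 and 2729.9 without. The 2 sets of libraries overlap, and within libraries the gene was higher in 8 of 8 (log2 fold change 0.35, SE 0.07, adjusted p = 0.0092). Hsp90aa1 had 455, 647 and 1261 CPM against 368, 524 and 1038 (0.32, SE 0.07, adjusted p = 0.014, 6 of 8). Hspa8 had 999.6, 1271 and 2654 against 944, 1149 and 2289 (0.22, SE 0.05, adjusted p = 0.016, 8 of 8). Hsph1 had 22.5, 69.5 and 230.3 against 24.4, 53.9 and 208 (0.38, SE 0.10, adjusted p = 0.027, 7 of 8). The differences were thus small beside those between libraries but repeated within them. Hspa1a was called lower (-0.54, SE 0.15, adjusted p = 0.043, higher in 2 of 8), a call lost under most alternatives. Without PPCA day 2 it was at -0.29 (adjusted p = 0.38), and it was also lost without onset (0.070), vehicle day 2 (0.056), vehicle day 3 (0.069), PPCA day 3 (0.052) or vehicle day 4 (0.060), with total-count scaling (0.059) and with DESeq2 (0.24).

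In CD8-gated cells the same 4 genes were called higher, where 3.27% of 10465 genes were called higher, 1.77% lower and 5.04% in all, and none of the 10 was lower. Hsp90aa1 had a lowest, median and highest of 429, 659.6 and 1188 CPM with an Nr4a1 UMI against 379, 489 and 956 without (log2 fold change 0.36, SE 0.05, adjusted p = 9.5e-06, 8 of 8 libraries). Hsp90ab1 had 1274, 1755 and 2797 against 1135, 1397 and 2347 (0.28, SE 0.03, adjusted p = 1.9e-06, 8 of 8), and Hspa8 1144, 1532 and 2247 against 987, 1117 and 2071 (0.30, SE 0.05, adjusted p = 4.6e-05, 8 of 8). Hsph1 was at 0.27 (SE 0.08, adjusted p = 0.039, 6 of 8), a call lost with DESeq2 (0.093) and with no cell filters (0.073). Hspa1a and Hspa1b did not pass, at 0.37 (adjusted p = 0.35) and 0.44 (adjusted p = 0.45), and neither did Chordc1, Ahsa2 or Dnajb1 in either gate. Stip1 stood at 0.24 (adjusted p = 0.071) and 0.19 (adjusted p = 0.070) and passed under some alternatives, which were total-count scaling (0.049 and 0.037), no cell filters (0.040 and 0.037) and leaving out PPCA day 4 (0.039 and 0.035) in both gates, and no low-count filter (0.039) and leaving out vehicle day 4 (0.030) in CD4-gated cells. The calls for Hsp90ab1, Hsp90aa1 and Hspa8 in CD8-gated cells held without each library in turn, as did that for Hsp90ab1 in CD4-gated cells. The others were lost without at least 1 library, Hsph1 in CD4-gated cells without active (0.26, adjusted p = 0.079), vehicle day 2, PPCA day 2, vehicle day 3 or PPCA day 3 and in CD8-gated cells without active (0.19, adjusted p = 0.21), onset, PPCA day 2 or PPCA day 3, Hsp90aa1 in CD4-gated cells without active (0.28, adjusted p = 0.054) or PPCA day 3, and Hspa8 in CD4-gated cells without active (0.21, adjusted p = 0.053), onset or vehicle day 2.

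Genes of other chaperone lists were also called higher in the same cells, where 3.55% of all genes in CD4-gated and 3.27% in CD8-gated cells were. Of the 8 TRiC subunits 5 rose in CD4-gated and 6 in CD8-gated cells, for example Cct3 by 0.28 and 0.29. Of 9 mitochondrial chaperones 2 and 3 rose, among them Hspd1, the mitochondrial Hsp60, by 0.46 and 0.39. Of 12 ER chaperones 1 and 2 rose, Hspa5 by 0.48 in both, and of the other cytosolic list 2 of 31 (Hspa4l and Dnaja1) and 3 of 32 (Hspa4, St13 and Ppid), within 2 genes of the share over all genes. Of 10 tested early response genes 4 and 7 rose, with Egr1 at 1.47 and 1.501. Hsf1 did not pass, at 0.23 (edgeR adjusted p = 0.17) and 0.13 (adjusted p = 0.61), nor did it between Foxp3 classes (0.16), Ccl5 classes (-0.03) or the gates (0.09). Cells with an Nr4a1 UMI numbered 150 to 1958 CD4-gated and 60 to 853 CD8-gated per library. Among CD4-gated cells the day 4 libraries held the most, 1958 of 4545 in vehicle and 896 of 3016 in PPCA. Cells with such a UMI were deeper in every library, for example at a median of 5360.5 UMIs against 4941 in CD4-gated cells of onset. The part of depth was not tested. Total-count scaling moved the share of calls that were higher from 68.1% to 81.7% in CD4-gated and from 64.9% to 76.4% in CD8-gated cells, and no call for these 4 genes was lost by it.

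**Figure D4:**
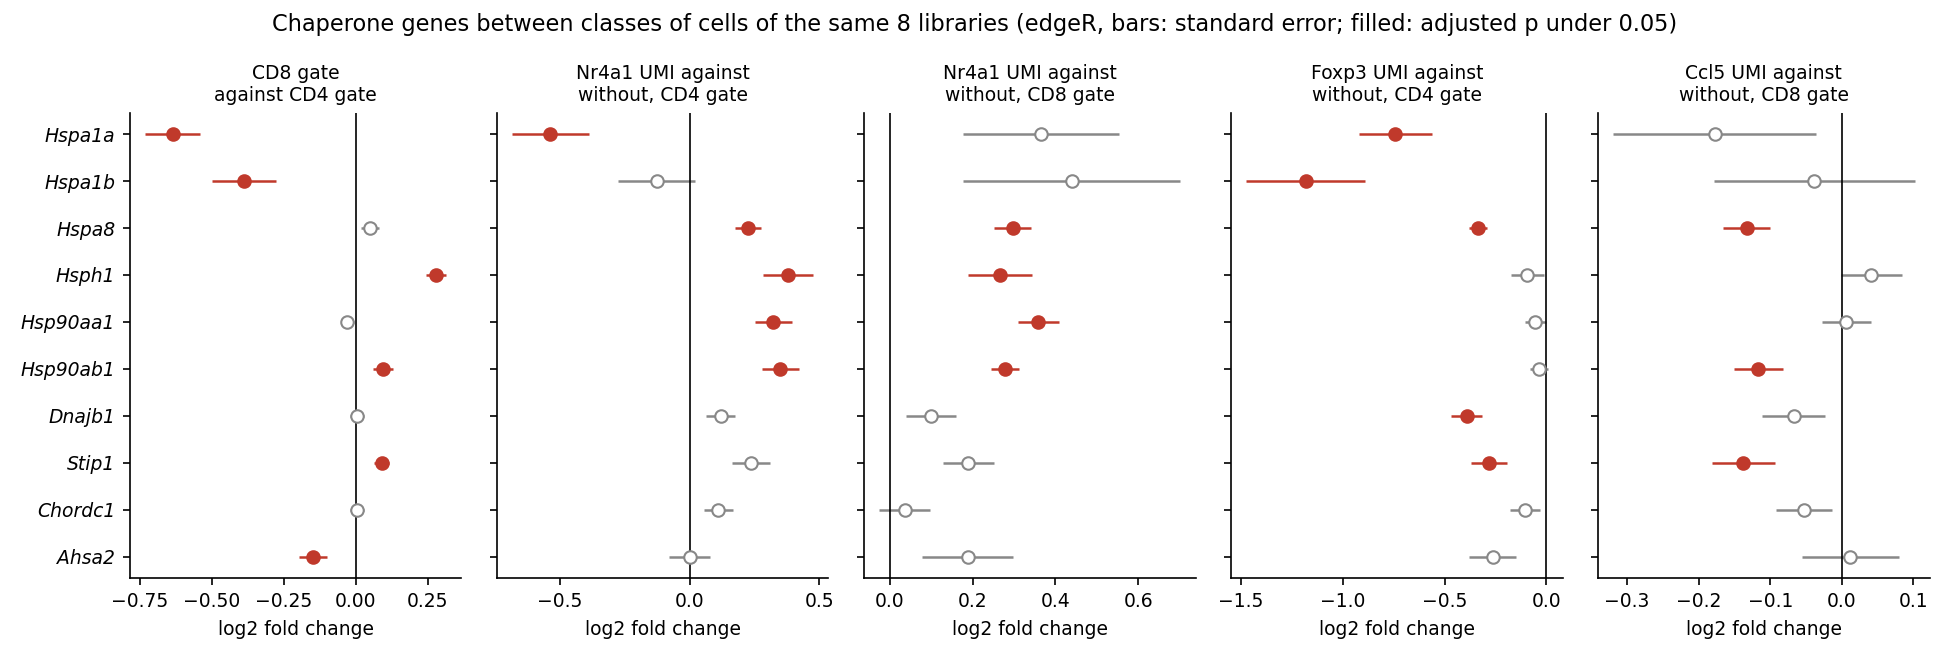
Log2 fold change of each chaperone gene between 2 classes of cells within the same 8 libraries (edgeR, library as a block), with standard errors and filled points for an adjusted p under 0.05; each panel has its own horizontal scale. Hsp90ab1, Hsp90aa1, Hspa8 and Hsph1 lie to the right in both Nr4a1 panels (0.22 to 0.38), and in the Foxp3 panel all 10 lie to the left of 0, 4 of which (Hsph1, Hsp90ab1, Hsp90aa1 and Chordc1) lie to the right of 0 with total-count scaling.

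CD4-gated cells with a UMI of Foxp3, the transcription factor of regulatory T cells, had lower Hsp70 genes and Dnajb1. With TMM scaling edgeR called 5 of the 10 lower and none higher, where 15.3% of 10476 genes were called lower, 14.7% higher and 29.9% in all. Hspa8 had a lowest, median and highest of 739, 1041 and 1827 CPM with a Foxp3 UMI against 1036, 1252 and 2509 without (log2 fold change -0.34, SE 0.05, adjusted p = 1.5e-07, higher in 1 of 8 libraries). Dnajb1 had 39.0, 82.7 and 155 against 55.2, 125 and 186 (-0.39, SE 0.08, adjusted p = 0.00010, higher in none of 8). Both sets of levels overlap across libraries while the direction within libraries repeated with TMM scaling. On levels per library total Dnajb1 was higher in 3 of 8 libraries and Hspa8 in 1 of 8. Stip1 was at -0.28 (adjusted p = 0.011, higher in 2 of 8), a call lost without onset (-0.20, adjusted p = 0.11) and with DESeq2 (0.089). Hspa1a (-0.74, SE 0.18, adjusted p = 0.0012) and Hspa1b (-1.18, SE 0.29, adjusted p = 0.0017) were called lower too, the first not by DESeq2 (adjusted p = 0.090). Their counts in Foxp3 cells were small, 7, 16, 3 and 90 Hspa1a UMIs in active, onset, vehicle day 2 and PPCA day 2 and none in the other 4 libraries, so these fold changes depend on the fit's prior count. Total-count scaling moved the median of all genes from -0.03 to 0.18 and the share of calls that were higher from 49.0% to 83.2%. Under it Hspa8 (-0.12, adjusted p = 0.015), Hspa1a (-0.57, adjusted p = 0.011) and Hspa1b (-1.01, adjusted p = 0.0064) were still called lower, Dnajb1 (-0.18, adjusted p = 0.065) and Stip1 (-0.08, adjusted p = 0.53) were not, and Hsp90ab1 (0.17, adjusted p = 0.00048) and Hsp90aa1 (0.16, adjusted p = 0.0091) were called higher, each below that shifted median. With TMM scaling 6 of the 8 TRiC subunits were also lower, among them Cct6a by 0.45 (-0.45). Foxp3 cells numbered 98 to 206 per library and had fewer UMIs, for example a median of 5072.5 against 6182 in active.

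In CD8-gated cells, a UMI of the chemokine gene Ccl5, made by effector and memory CD8 T cells, went with small differences. With TMM scaling 3 of the 10 were called lower and none higher by edgeR, where 22.2% of 10413 genes were called lower, 19.5% higher and 41.7% in all. They were Stip1 (-0.14, SE 0.04, adjusted p = 0.016), Hspa8 (-0.13, SE 0.03, adjusted p = 0.0025) and Hsp90ab1 (-0.12, SE 0.03, adjusted p = 0.0085), each higher in 1 of 8 libraries. On levels per library total Stip1 was higher in 4 of 8 and Hspa8 and Hsp90ab1 in 3 of 8 each. Hspa8 had a lowest, median and highest of 933, 1112 and 1885 CPM with a Ccl5 UMI and 1034, 1172 and 2290.2 without, which overlap. None of the 3 calls held with total-count scaling (-0.01, -0.01 and 0.01, the last for Hsp90ab1), which moved the median of all genes from -0.02 to 0.10 and the share of calls that were higher from 46.8% to 76.7%, and under which Hsph1 (0.17, adjusted p = 0.0027) and Hsp90aa1 (0.13, adjusted p = 0.0010) were called higher. The call for Stip1 was also lost without onset (-0.12, adjusted p = 0.057) or PPCA day 2 (-0.11, adjusted p = 0.063) and with DESeq2 (0.096). With TMM scaling 7 of the 8 TRiC subunits and 6 of the 9 mitochondrial chaperones were lower as well.

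Most of the 10 genes varied together across libraries, with no sharp division among them. The genes were chosen by levels in these libraries, so this describes them and supports nothing further. No r over genes in general was set beside it. Onset stood apart for most of them, in CD4-gated cells for example Hsph1 at 206 CPM against at most 81.1 elsewhere and Hsp90ab1 at 2717 against at most 1450.3. The part of onset in the r values was not tested. Over 16 sums (2 gates in each of 8 libraries, which share library and depth) the 7 genes other than Hspa1a, Hspa1b and Dnajb1 had a median pairwise Pearson r of 0.91 (0.56 to 0.98 over 21 pairs) on log2 CPM. Hspa1a or Hspa1b with those 7 had a median r of 0.66 (0.42 to 0.77), and Dnajb1 with the 7 a median of 0.47 (0.27 to 0.86), so the ranges overlap. Dnajb1 was closest to Hsp90aa1 (0.86), which was less close to Ahsa2 (0.56) and Hsph1 (0.69), while Hspa1a and Hspa1b had 0.96 with each other. The genes outside the 10 most like the mean of all 10, out of 7264, were Dnaja1 (r = 0.961), a J-domain partner of Hspa8 at 297 to 1005 CPM, Cct6a (0.954), Hspd1 (0.951), Cacybp (0.949) and Ahsa1 (0.948). Each was highest in onset. Between single cells of 1 library, thinned to 2000 UMIs, the relations were weak. Hsp90ab1 and Hsp90aa1 had a median r of 0.18 over 8 libraries in CD4-gated cells (0.05 to 0.39), Hsp90ab1 and Hspa8 0.16, and Hspa8 and Hspa1a 0.01. In sparse counts such weak values are no finding.

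In the authors' deposited table of marker genes for 7 clusters, 4 of the 10 were listed, all for the cluster the authors named CD4 Th0. That cluster lists 179 genes, out of 32285 features in the count matrices. The authors' deposited table gives Hsp90ab1 a log2 fold change of 0.63 there (rank 20), Hsp90aa1 0.50 (rank 39), Hspa8 0.47 (rank 47) and Hsph1 0.28 (rank 142). Egr1 (rank 1) and Nr4a1 (rank 4) are listed for the same cluster in the authors' deposited table. The authors' deposited table also lists other chaperones there, among them Hspd1 (rank 24), Hspa5 (rank 31), Hspe1 (rank 50), St13 (rank 78) and Cct3 (rank 89). It was made from cells of this study, so it is no independent evidence for the higher levels in cells with an Nr4a1 UMI. The other 6 clusters list none of the 10 in the authors' deposited table.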

How the data were processed

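Droplet 3′ single-cell libraries of sorted pancreatic T cells were analysed, 8 in all. The authors deposited raw UMI counts per gene and barcode, made with Cell Ranger 6.0.0 per the file headers and 6.1.2 per the submitters' processing notes. No genome build was named in the labels or headers. The authors' deposited marker table gives log2 fold changes and p-values and was quoted only. The labels name PPCA, vehicle, onset and active, and the days.

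Cells with at least 500 genes, at most 10% mitochondrial UMIs, at least 2 T cell UMIs and at most 1 UMI of 6 genes of other cells were kept, after the top-scoring barcodes by Scrublet, 0.8% per 1000 barcodes, were removed as likely doublets. Counts were summed per library and gate and tested across all genes with edgeR 4.0.16 (quasi-likelihood, TMM, filterByExpr, Benjamini-Hochberg threshold 0.05) in R 4.3.3, with day as a block for PPCA against vehicle and library as a block for gates and cell classes. Same-day libraries deviated together, with correlations of 0.33 to 0.51 in CD4-gated and 0.35 to 0.54 in CD8-gated cells, and the labels pair them by day. The procedure was also run on simulated counts with 200 genes changed 2-fold per comparison, of which it recovered 94 to 100%. Those counts held no day, sex-linked or library effects and the same spread for every gene. That recovery therefore does not carry over to the real libraries. DESeq2 1.42.0, other scalings and filters, no block, a sex-linked factor and leaving out libraries were alternatives. Counting intervals and floors cover counting error only, at the 95% level (exact).

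The members and gene lists were chosen with earlier results of these data known. Named genes are the 10 members, Hsf1, called genes of the listed chaperone groups with the largest changes, and the 5 genes most like the members' average. For onset against active, which had no test, some chaperones were named after their values were seen.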

Additional observations from a re-analysis of the deposited data

Results flagged for a closer look

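The direction of PPCA against vehicle over the 10 chaperone genes differed between days, without a test of that difference, since each day has 1 library of each treatment. In CD4-gated cells the median log2 ratio was 0.38 on day 2 and -0.63 on day 4, with 10 of 10 genes higher on the first and 1 of 10 on the second, while 56.8% of 7288 genes were higher on day 2, 81.2% higher on day 3 and 48.4% lower on day 4. It was 0.50 on day 3, when the median over all genes was 0.18, against the same -0.63 on day 4. In CD8-gated cells it was 0.38 on day 2 and 0.50 on day 3, when the median over all genes was 0.19, against -0.47 on day 4. The day 4 pair is unlike in sex-linked genes, as is the day 2 pair, and the part of this in the reversal was not tested.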

How the results depend on the processing

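Each condition and day is 1 library and the treatment fits rest on 3 pairs, while depth limits Hspa1a and Hspa1b in the libraries and classes with few of their UMIs. Scaling by total counts was added after seeing the data. The cause of each change given here was not tested. For PPCA in CD4-gated cells, DESeq2 called 34 genes, edgeR with no low-count filter 166 (3 of the 10) and with a sex-linked factor 74 (1 of the 10). In CD8-gated cells total-count scaling and DESeq2 size factors gave 2 genes each, DESeq2 40, no low-count filter 117 (1 of the 10) and a sex-linked factor 183 (3 of the 10). For day 4, total-count scaling left 1 of the 10 called in CD4-gated cells, no low-count filter gave 2525 genes (4 of the 10), and DESeq2 gave 1288 genes in CD8-gated cells. DESeq2 called 3 of the 10 between gates and 3 for Foxp3, and no low-count filter gave 979 genes for Nr4a1 in CD4-gated cells and 8 of the 10 for Foxp3. Leaving out libraries gave 0 to 186 genes (0 to 3 of the 10) for PPCA in CD4-gated and 0 to 210 (0 to 4) in CD8-gated cells, the most without the day 4 pair. It gave 692 to 1145 (1 to 2) and 540 to 1678 (0 to 2) for day 4, the fewest without the day 3 pair. For Nr4a1 it gave 240 to 804 genes (2 to 6) in CD4-gated cells, with 240 without active, 291 without onset, 297 without vehicle day 2, 301 without PPCA day 3 and 340 without vehicle day 3, and 346 to 604 in CD8-gated cells.

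The fits rest on the pairing by day or library. With no replicate block, edgeR called 2007 genes between gates, 31 and 51 for Nr4a1 in CD4- and CD8-gated cells, 1991 for Foxp3 and 2001 for Ccl5, with 0 of the 10 in each of these 5 comparisons. Leaving out the block changed the sign of Ahsa2 (0.046) for PPCA in CD4-gated cells, Hsp90aa1 (-0.011) for PPCA in CD8-gated cells, and of Chordc1 (-0.010) and Dnajb1 (-0.00075) for the gates. It also changed that of Hspa1a (-0.30) for Nr4a1 in CD8-gated cells, and of Hspa1a (0.026), Hspa1b (0.13) and Hsp90aa1 (-0.017) for Ccl5. The unpaired exact permutation test of the thinned Hspa1a or Hspa1b share gave p = 0.6 and 0.5.

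Total-count scaling changed the sign of Hsp90ab1 (0.074), Stip1 (0.0055), Chordc1 (0.022) and Ahsa2 (0.067) for PPCA in CD4-gated cells, Hsp90ab1 (0.031), Chordc1 (0.0065) and Hspa8 (0.079) for PPCA in CD8-gated cells, and of Hsp90ab1 (-0.12) and Hspa8 (-0.081) for day 4 in CD4-gated cells. It also changed that of Hsp90ab1 (-0.082) and Hspa8 (-0.0039) for day 4 in CD8-gated cells, Chordc1 (-0.036) and Dnajb1 (-0.036) for the gates, and of Ahsa2 (0.028) for Nr4a1 in CD4-gated cells. It also changed that of Hsph1 (0.11), Hsp90ab1 (0.17), Hsp90aa1 (0.16) and Chordc1 (0.10) for Foxp3, and of Hspa1b (0.094), Hsp90ab1 (0.0073), Chordc1 (0.073) and Dnajb1 (0.062) for Ccl5. Testing with no low-count filter changed the sign of Hspa8 (0.00042) for PPCA in CD8-gated cells, Chordc1 (-0.0026) and Dnajb1 (-0.0023) for the gates, and of Chordc1 (-0.0094) for Nr4a1 in CD8-gated cells. It also changed that of Hsp90aa1 (-0.031) and Ahsa2 (-0.024) for Ccl5. Using no cell filters changed the sign of Ahsa2 (-0.0039) for Ccl5. DESeq2 changed the sign of Hspa1b (0.46) for day 4 in CD8-gated cells, Chordc1 (-0.0013) and Dnajb1 (-0.0019) for the gates, and of Ahsa2 (0.0012) for Nr4a1 in CD4-gated cells. DESeq2 size factors in edgeR changed the sign of Chordc1 (-0.0014) and Dnajb1 (-0.0018) for the gates, and of Ahsa2 (0.0013) for Nr4a1 in CD4-gated cells.

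With 1 library or pair left out, the sign for PPCA in CD4-gated cells changed in Ahsa2 (-0.22 to 0.30), Chordc1 (-0.28 to 0.23), Hsp90aa1 (-0.012 to 0.23), Hsp90ab1 (-0.16 to 0.20), Hspa1a (-0.24 to 3.65), Hspa8 (-0.060 to 0.27), Hsph1 (-0.56 to 0.42) and Stip1 (-0.30 to 0.29). For PPCA in CD8-gated cells it changed in Ahsa2 (-0.023 to 0.38), Chordc1 (-0.25 to 0.17), Hsp90aa1 (-0.087 to 0.10), Hsp90ab1 (-0.16 to 0.086), Hspa1a (-0.14 to 3.69), Hspa8 (-0.11 to 0.15), Hsph1 (-0.50 to 0.46) and Stip1 (-0.42 to 0.20). For day 4 in CD4-gated cells it changed in Chordc1 (-0.34 to 0.0047), Hsp90ab1 (-0.054 to 0.11), Hspa1a (-3.30 to 0.17) and Hspa1b (-2.00 to 0.44). For day 4 in CD8-gated cells it changed in Hsp90ab1 (-0.038 to 0.20), Hspa1a (-3.32 to 0.40) and Hspa1b (-1.83 to 0.94). Between the gates it changed in Chordc1 (-0.017 to 0.015) and Dnajb1 (-0.0097 to 0.016). For Nr4a1 in CD4-gated cells it changed in Ahsa2 (-0.048 to 0.016). For Nr4a1 in CD8-gated cells it changed in Chordc1 (-0.0027 to 0.073). For Ccl5 it changed in Ahsa2 (-0.018 to 0.068) and Hsp90aa1 (-0.0099 to 0.034). Of the values of single genes under all alternatives, 878 kept their direction and side of the threshold, 82 lost a call, 32 gained one and 88 changed sign. Values that changed sign are counted only as such, and some of them also gained a call.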
